A study of Rattus norvegicus with 23 samples.

Results

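The 10 genes Lyz2, Ly6c, Cd68, Cd14, Csf1r, Cd163, Mrc1, Adgre1, C1qa and C1qb, known as markers of macrophages and monocytes, were followed in whole hearts of newborn rats. A probe set was taken when the array annotation gave it 1 gene symbol and that symbol was 1 of these 10, which left 10 probe sets (1 per gene) among 29170 on the array, of which 15310 carried a single symbol. Lyz2 and Ly6c were included because their interaction terms, for diabetes combined with HF diet, were among the largest in earlier results of these same hearts. Every group difference of these 2 genes is built from that same contrast, so it is given below as a description without a p-value. The other 8 genes were chosen for the cell type.

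Gene expression was measured on Affymetrix Rat Gene 1.0 ST arrays in 23 hearts, 1 array per heart. All pups were Sprague Dawley and were studied on postnatal day 1. Controls (7 hearts) came from dams on control diet injected with citrate buffer, and diabetes hearts (6) from dams on control diet given 65 mg/kg streptozotocin, which destroys insulin-producing beta cells, on gestational day 14. HF diet hearts (5) came from dams fed a high-fat diet for at least 28 days and given buffer, and combination hearts (5) from dams with both the high-fat diet and streptozotocin. Diabetic dams received insulin with a glucose target of 200 to 400 mg/dl, so the model is one of partly controlled diabetes of late pregnancy. Dams delivered on gestational day 22, both sexes were pooled within a group, and the sex of each heart was not used here.

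Macrophages settle in the heart before birth and are joined by blood monocytes. They engulf dying cells and debris, present antigen and secrete lysozyme and complement. Resident cardiac macrophages are recognised by scavenger and mannose receptors, while monocytes newly arrived from blood are marked by Ly6 family antigens.

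Each deposited value was a log2 value centred on the median of that probe set over the 23 hearts. A value of 0 is thus the middle heart and not absence of the transcript, levels of different genes cannot be compared, and whether the cell type's defining transcripts were present above background cannot be read. In a whole heart, fewer macrophages and less RNA per macrophage cannot be told apart. P-values measure the spread between hearts, some of which may share a dam, because the codes in the sample labels of 7 hearts share a stem with another heart of the same group (combination hearts 1 and 2, combination hearts 4 and 5, and HF diet hearts 3 to 5) and the labels do not say what a stem stands for.

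A single heart stood apart. Control heart 1 had a mean of 2.45 over 14 lung epithelial genes (surfactant proteins, secretoglobins and the like) and of 2.56 over 17 genes of lymphocytes and thymus, whereas the other 22 hearts ranged from -0.18 to 0.85 and from -0.09 to 0.16. HF diet heart 4 (0.85) and diabetes heart 3 (0.67) were the next highest for the lung list, and the combination hearts lay between -0.15 and 0.0015. Control heart 1 also had the highest values of Lyz2, Ly6c, Cd68, Csf1r and Cd163 of all 23 hearts. Lung holds many macrophages and its type II epithelial cells also make lysozyme. The part of this signal in the results was not tested, and a gene's difference from control, where given, is given with and without control heart 1. Over all probe sets, none had an adjusted p under 0.05 in any of the 6 pairwise comparisons or the interaction by limma, although 469 to 3893 had an unadjusted p under 0.05; the methods' t-test gave 517 to 2202 at that level over the 6 pairwise comparisons and likewise 0 after adjustment.

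The sequences before the transcription start of Lyz2, C1qa and C1qb are shown because these 3 genes moved together from heart to heart. The lines give the bases before the outermost annotated RefSeq start of each gene on GRCr8, within 250 bases of the start used in the promoter table, on the minus strand of the chromosome, 5′ to 3′. Capitals mark GAGGAA or its reverse complement TTCCTC, the core of the sequence bound by PU.1, a transcription factor of the myeloid lineage. The Lyz2 window lies at chr7:54798061-54798261, that of C1qa at chr5:154419934-154420183 and that of C1qb at chr5:154407828-154408077.

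Lyz2: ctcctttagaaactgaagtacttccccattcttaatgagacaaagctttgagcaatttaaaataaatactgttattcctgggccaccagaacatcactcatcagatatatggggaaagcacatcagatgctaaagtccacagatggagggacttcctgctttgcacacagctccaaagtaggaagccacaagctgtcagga

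C1qa: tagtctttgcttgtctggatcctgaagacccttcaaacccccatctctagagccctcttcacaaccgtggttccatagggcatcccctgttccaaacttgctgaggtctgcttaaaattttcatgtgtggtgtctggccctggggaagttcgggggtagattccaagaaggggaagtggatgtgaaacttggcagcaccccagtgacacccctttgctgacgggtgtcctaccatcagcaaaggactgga

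C1qb: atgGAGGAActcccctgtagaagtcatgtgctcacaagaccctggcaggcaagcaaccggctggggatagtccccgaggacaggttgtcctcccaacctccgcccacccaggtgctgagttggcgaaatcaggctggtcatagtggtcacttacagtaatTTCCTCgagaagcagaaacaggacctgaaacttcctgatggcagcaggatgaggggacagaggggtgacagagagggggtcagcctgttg

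The C1qb window held the motif at positions -247 and -90 from the start, and its letters were not in the windows of Lyz2 (201 bases) and C1qa. For Lyz2 the table's 250 bases reach 49 bases into the annotated gene, and those are not shown. They held GAGGAA once, at position -46 from the start used in the promoter table. Of the 9 members found in the RefSeq promoter table, 4 held the motif on either strand before their annotated start, beside 5711 of 33469 promoters in all (17.1%). Counted over the full 250 bases, which reach into the annotated gene for 5 of the 9 members, it was 7 of 9 beside 23.3%. A match is a description of the letters and not of a binding site. C1qa and C1qb lie on chromosome 5 on either side of C1qc, with 2877 and 3017 bases between neighbours, and encode chains of the same complement protein. Lyz2 lies on chromosome 7, 12362 bases from Lyc2, another lysozyme gene.

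Lyz2 encodes lysozyme, the secreted enzyme that cuts bacterial cell walls. In the 5 combination hearts its values were 1.51, 1.51, 1.11, -0.28 and 0.11, and in the 5 HF diet hearts -0.83, -0.31, -0.35, 0.52 and 0.44. The 7 controls ran from -0.49 through a median of 0 to 1.89, and the 6 diabetes hearts from -0.43 through -0.23 to 0.86. In all, 3 combination hearts were thus above every diabetes and every HF diet heart, while the other two lay within the range of both groups, and the only control heart as high was control heart 1. The first pair of values, 0.005 apart, came from the 2 hearts whose codes share a stem, and the 2 low values came from the other such pair.

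Group means of Lyz2 were 0.79 ± 0.83 (SD, n = 5) for combination, 0.23 ± 0.78 (n = 7) for control, -0.0037 ± 0.49 (n = 6) for diabetes and -0.11 ± 0.57 (n = 5) for HF diet, each step in this order being smaller than the SD of the groups beside it. The combination hearts were higher than the HF diet hearts by 0.90 (SE 0.40, a fold of 1.86), than the diabetes hearts by 0.80 (SE 0.38, a fold of 1.74) and than the controls by 0.56 (SE 0.37, a fold of 1.47). Without control heart 1 the last difference was 0.83. The interaction, which is the extra difference of the combination beyond the sum of the diabetes and HF diet differences, was 1.14 (SE 0.53) with all hearts and 0.86 without control heart 1.

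Ly6c, a surface antigen of the Ly6 family, followed a similar but smaller pattern. Its values were 0.90, 0.79, 0.33, -0.27 and 0.14 in the combination hearts and -0.24, -0.06, -1.07, -0.32 and 0.38 in the HF diet hearts. Controls ran from -0.27 through 0.10 to 1.501, and diabetes hearts from -0.56 through -0.09 to 0.61. Combination hearts 1 and 2 were above all diabetes and HF diet hearts, and HF diet heart 3 was the lowest heart of the series. The combination was higher than HF diet by 0.64 (SE 0.30) and than diabetes by 0.46 (SE 0.29), but differed from control by only 0.08 (SE 0.28), or by 0.28 without control heart 1. HF diet hearts differed from controls by -0.56 (SE 0.28), or by -0.36 without control heart 1. The interaction of Ly6c was 1.02 (SE 0.40), or 0.82 without that heart.

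**Figure D1:**
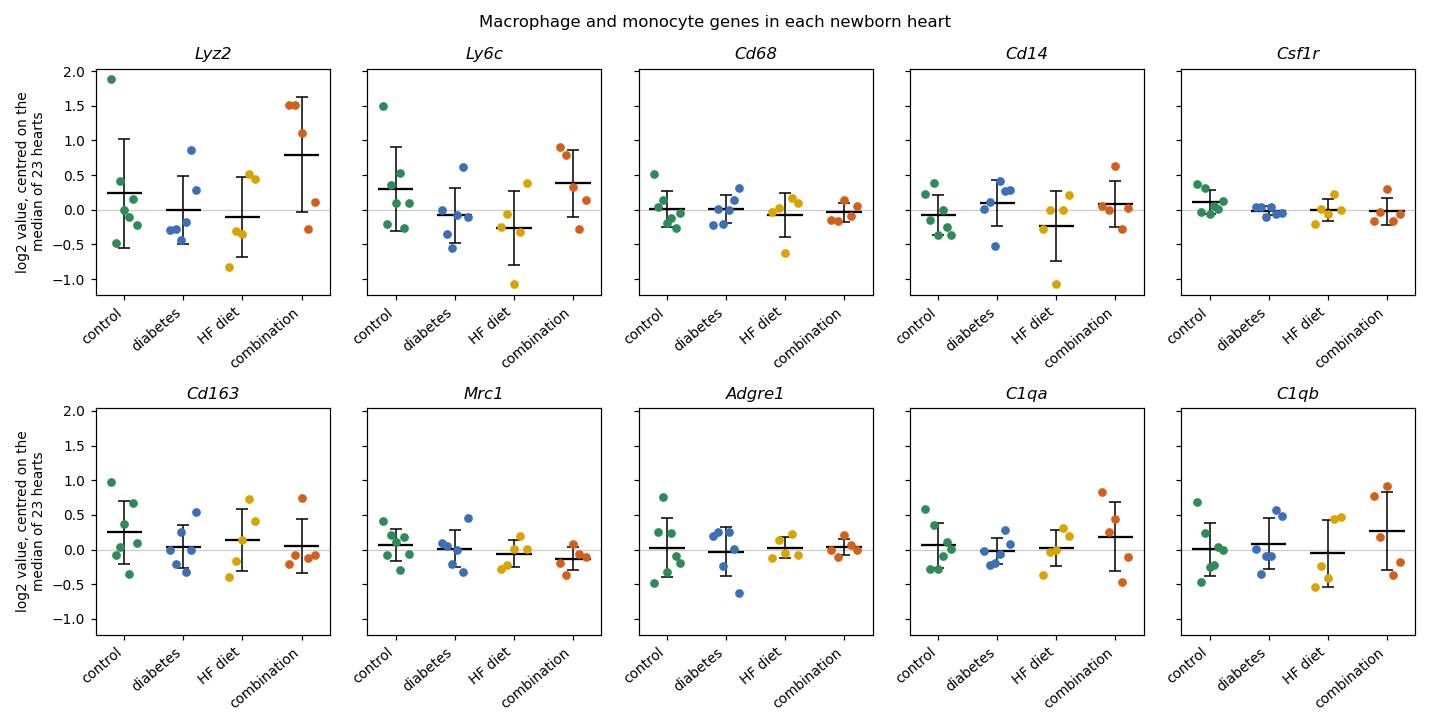
Value of each of the 10 genes in each heart (points; log2, centred on the median of 23 hearts) by exposure group, with the group mean (horizontal bar) and SD (whiskers). For Lyz2, 3 of the 5 combination hearts lie between 1.11 and 1.51 and the highest control is control heart 1 at 1.89, while the values of Csf1r lie between -0.21 and 0.38 in all groups.

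The complement genes C1qa and C1qb encode chains of C1q, the recognition protein that starts the classical complement pathway and which tissue macrophages make. C1qa was 0.83, 0.25, 0.44, -0.47 and -0.11 in the combination hearts and -0.36, -0.03, 0, 0.31 and 0.20 in the HF diet hearts. Controls lay between -0.28 and 0.58 (median 0.01) and diabetes hearts between -0.23 and 0.29 (median -0.04). C1qb was 0.77, 0.18, 0.92, -0.37 and -0.17 in the combination hearts and -0.54, -0.24, -0.41, 0.45 and 0.47 in the HF diet hearts. Controls of C1qb lay between -0.46 and 0.69 (median 0) and diabetes hearts between -0.35 and 0.57 (median -0.04). The same 3 combination hearts that were high for Lyz2 were above 0 for both C1q genes and the other 2 were below it. Combination differed from control by 0.13 (SE 0.18, adjusted p = 0.803) for C1qa and by 0.26 (SE 0.24, adjusted p = 0.689) for C1qb, so neither difference exceeded the spread between hearts. Without control heart 1 they were 0.22 and 0.38, and without combination heart 1 they were -0.03 and 0.14.

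Cd14, the co-receptor that hands bacterial lipopolysaccharide to Tlr4, had its largest difference between the 2 single exposures. Its values were -0.28, -0.01, -1.08, -0.01 and 0.21 in the HF diet hearts and 0.05, 0, 0.63, -0.29 and 0.03 in the combination hearts. The diabetes hearts ran from -0.53 through 0.20 to 0.42 and the controls from -0.36 through -0.15 to 0.38. The groups overlapped throughout and HF diet heart 3 was far below the rest. Diabetes hearts were higher than HF diet hearts by 0.33 (SE 0.21, adjusted p = 1.00) and combination hearts by 0.32 (SE 0.22, adjusted p = 0.498), neither of which passed. Without HF diet heart 3 these differences were 0.12 and 0.11. When the 3 hearts with a lung list mean above 0.5 were left out, an alternative chosen after the data were seen, the difference between diabetes and HF diet was 0.51 (SE 0.21, unadjusted p = 0.0271 in the limma fit) and passed the unadjusted threshold given below.

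Cd68, a glycoprotein of the lysosome membrane in phagocytes, had group means between -0.07 and 0.01 in all 4 groups. Its values in the combination hearts were -0.14, -0.16, 0.14, -0.09 and 0.06, and in the HF diet hearts -0.04, 0.03, -0.63, 0.17 and 0.10. Controls ran from -0.26 through -0.05 to 0.52 and diabetes hearts from -0.22 through 0.008 to 0.31. No pairwise difference of Cd68 was larger than 0.08 in either direction.

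Csf1r is the receptor for the growth factors Csf1 and Il34, on which macrophages depend for survival. It was the steadiest of the 10 genes, with an SD within groups of 0.15 beside a median of 0.18 over all probe sets. Combination hearts had -0.16, -0.03, 0.31, -0.16 and -0.06, HF diet hearts -0.21, 0.01, -0.07, 0.23 and 0, diabetes hearts -0.11 to 0.05 (median -0.0075) and controls -0.07 to 0.38 (median 0.06). The 3 exposed groups had means between -0.02 and -0.0068, and the control mean was 0.11 ± 0.17 (SD, n = 7). The differences from control were -0.14 for combination (SE 0.09, adjusted p = 0.585), -0.13 for diabetes (SE 0.09, adjusted p = 1) and -0.12 for HF diet (SE 0.09, adjusted p = 1.00), and without control heart 1 they were -0.09, -0.09 and -0.08.

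Cd163 and Mrc1 are receptors of resident macrophages. Cd163 takes up complexes of haemoglobin and haptoglobin, and Mrc1 binds mannose on glycoproteins and microbes. Cd163 was -0.20, -0.08, 0.74, -0.11 and -0.08 in the combination hearts and -0.40, -0.17, 0.14, 0.73 and 0.41 in the HF diet hearts, with controls from -0.35 through 0.10 to 0.98 and diabetes hearts from -0.32 through -0.004 to 0.54. Mrc1 was -0.19, -0.36, 0.08, -0.07 and -0.10 in the combination hearts and -0.28, -0.22, 0.005, 0.20 and 0.003 in the HF diet hearts, with controls from -0.30 through 0.11 to 0.42 and diabetes hearts from -0.32 through 0.02 to 0.46. Unlike Lyz2, these receptors were not above 0 in combination hearts 1 and 2. Combination differed from control by -0.19 for Cd163 (SE 0.22, adjusted p = 0.755) and by -0.20 for Mrc1 (SE 0.13, adjusted p = 0.572), and without control heart 1 by -0.07 and -0.14.

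Adgre1, an adhesion receptor used as a general macrophage marker in mice, had group means between -0.03 and 0.03. Its values were -0.001, -0.11, 0.21, 0.07 and 0 in the combination hearts and -0.12, 0.14, -0.06, 0.23 and -0.08 in the HF diet hearts. Controls ran from -0.48 through -0.09 to 0.77 and diabetes hearts from -0.63 through 0.10 to 0.26. Control heart 1, the highest heart for Lyz2, was the lowest control for Adgre1.

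**Figure D2:**
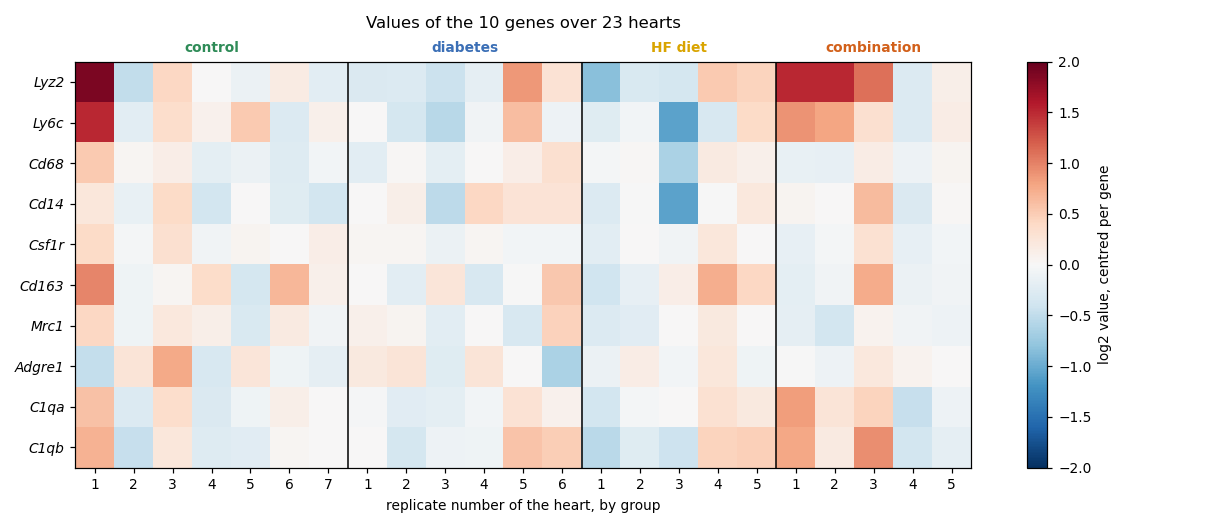
Values of the 10 genes (lines) in the 23 hearts (columns, by group and replicate number) as log2 values centred per gene, red above and blue below the median heart. Control heart 1 is red for every gene but Adgre1 (-0.48), and HF diet heart 3 is blue for Ly6c (-1.07), Cd68 (-0.63) and Cd14 (-1.08).

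Differences were also counted against the threshold that the study's methods state, a fold change beyond a limit of 0.32 on the log2 scale with an unadjusted p under 0.05. Against control, 0 of the 10 genes passed in the combination, where 3.31% of all probe sets did, 0 in HF diet, where 0.943% did, and 0 in diabetes, where 0.305% did. Lyz2 alone passed between combination and diabetes, beside 3.04% of all probe sets. Lyz2 and Ly6c passed between combination and HF diet, beside 5.76%, and in the interaction, beside 4.34%. Since these 2 genes were selected on that contrast, nothing is read from these counts. No gene passed between diabetes and HF diet (0.439% of all). Of the other 8 genes, 0 had an unadjusted p under 0.05 in any of the 6 pairwise comparisons or the interaction by limma, and 0 in the pairwise comparisons by the methods' t-test. All 10 genes overlapped between the groups in every pairwise comparison, beside non-overlap in 0.202% of all probe sets for combination and control, 0.127% for HF diet and control, 0.024% for diabetes and control, 0.387% for combination and diabetes, 1.64% for combination and HF diet and 0.182% for diabetes and HF diet.

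In direction, all 10 genes were below control in HF diet hearts (median -0.11, beside 0.01 over all probe sets). Adgre1 differed by only -0.0004 with all hearts, and by -0.08 without control heart 1. Without control heart 1, 6 of the 10 were below, without HF diet heart 3 likewise 6 (with Cd68 at 0.06 and Cd14 at 0.05), and without the 3 hearts with lung signal all 10 were. In diabetes hearts 8 of 10 were below control (median -0.07), and 4 of 10 without control heart 1. In combination hearts 6 of 10 were above control (median 0.04), 6 of 10 without control heart 1 (median 0.12) and 4 of 10 without combination heart 1 (median -0.03), so the direction of the median turned with 1 heart. For the interaction the sign of Lyz2 and Ly6c was fixed by the choice of these genes. Of the other 8 it was positive for 7 (median 0.11, beside 48.6% positive and a median of -0.0069 over all probe sets), and for 5 of 8 without control heart 1 or without HF diet heart 3. These comparisons share their control hearts and are not independent of each other. C1qa and C1qb correlated with Lyz2 (below), so their interactions are not independent of the choice of Lyz2 either.

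**Figure D3:**
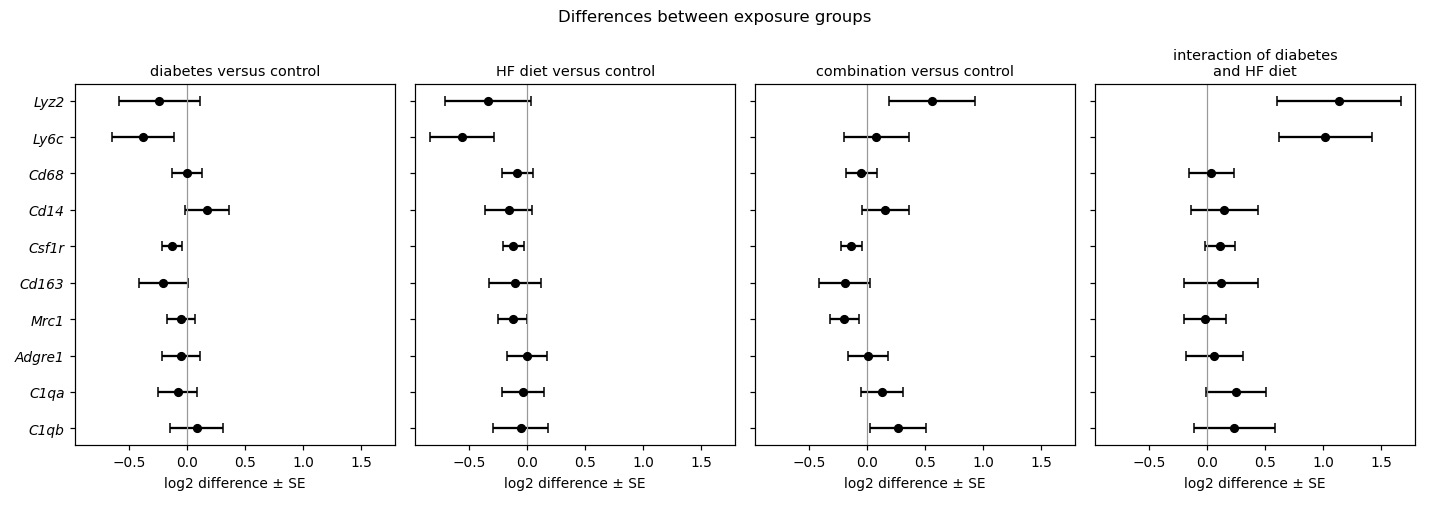
Difference of each exposed group from control, and the interaction, for the 10 genes (points, log2; bars, SE from the fit to 23 hearts). The interaction is 1.14 for Lyz2 and 1.02 for Ly6c and lies between -0.02 and 0.25 for the other 8 genes.

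The genes varied more from heart to heart than most of the array. The SD within groups of Lyz2 (0.69) exceeded that of 99.2% of probe sets, that of Ly6c (0.51) exceeded 97.0% and that of C1qb (0.44) exceeded 95.1%. Cd163 (93.8%), Cd14 (91.7%), C1qa (89.0%) and Adgre1 (87.5%) followed, and only Csf1r (36.5%) was below the middle.

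Much of this variation was shared. Of the 45 gene pairs, 38 had a positive correlation over the 23 hearts (median r = 0.44). Of the 44 pairs other than Lyz2 with Ly6c, 19 had an adjusted p under 0.05 by a permutation test, two-sided, adjusted over the 45, and among the 28 pairs of the other 8 genes 12 did. The permutations shuffled all 23 hearts without regard to group or code stem. The share over pairs of other probe sets was not computed, so whether these counts exceed it is not known. C1qa and C1qb correlated at r = 0.887 (rho = 0.898, permutation p = 1e-05 for both, the smallest that 100000 resamples give, adjusted 0.00015), at 0.865 without the 2 farthest hearts and at 0.90 after group means were taken away. Lyz2 correlated with C1qa at 0.869 (rho = 0.818, permutation p = 1e-05 for both, adjusted 0.00015) and with C1qb at 0.846 (rho = 0.865, permutation p = 2e-05 and 1e-05, adjusted 0.000225 and 0.00015), and without control heart 1 and combination heart 2 at 0.896 and 0.916. Lyz2 and Ly6c, chosen on the same contrast, correlated at 0.805, at 0.677 without those 2 hearts and at 0.79 within groups, given as a description.

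Further pairs stood out. Cd68 and Cd14 correlated at 0.748 (rho = 0.670, permutation p = 0.0001 and 0.00065, adjusted 0.0009 and 0.00495), and at 0.644 without control heart 1 and HF diet heart 3. The resident receptors Cd163 and Mrc1 correlated at 0.716 (rho = 0.676, permutation p = 0.00012 and 0.00066, adjusted 0.0009 and 0.00495), and at 0.659 without control heart 1 and combination heart 3. Ly6c, in contrast, had r = 0.149 with Cd163 (rho = 0.018, permutation p = 0.497 and 0.937, adjusted 0.572 and 0.937) and r = -0.0012 with Mrc1 (rho = -0.176, permutation p = 0.996 and 0.421, adjusted 0.996 and 0.512), which without control heart 1 and HF diet heart 3 were -0.175 and -0.354. Ly6c and Cd68 had r = 0.551 (rho = 0.294, permutation p = 0.00775 and 0.175, adjusted 0.0232 and 0.254), a relation that rested on control heart 1 and HF diet heart 3, since it was 0.019 without them. Adgre1 did not follow the rest, with r between -0.41 and 0.29 for its 9 pairs.

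**Figure D4:**
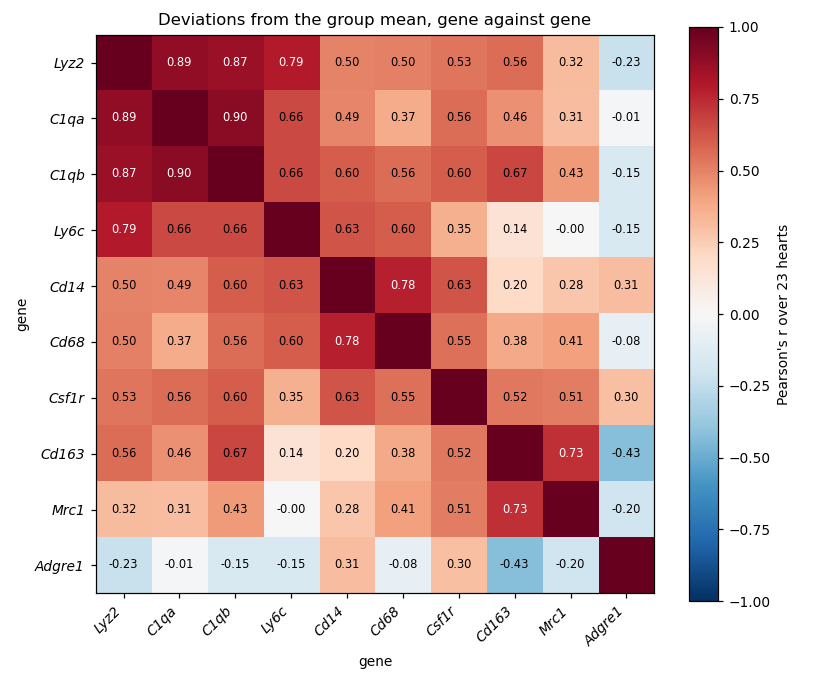
Pearson's r between the genes over 23 hearts after each group's mean was taken away, red positive and blue negative. Lyz2, C1qa and C1qb form a block at 0.87 to 0.90, Cd163 and Mrc1 reach 0.73, and Adgre1 lies between -0.43 and 0.31 with the others.

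Genes outside the 10 with the most similar course over the hearts are given as a description, with 15300 probe sets ranked. The mean of the 10 genes was most like Lgals3, a galectin of phagocytes (r = 0.913), the complement component C3 (0.883), the lysosomal protease Ctss (0.872), the inhibitory Fc receptor Fcgr2b (0.867) and the signalling adaptor Tyrobp (0.864). Lyz2 was most like Lyc2 (0.918), C3 (0.915) and Alox5ap, which serves leukotriene synthesis (0.883). Whether the probes of Lyz2 also detect Lyc2 transcripts was not tested. Lyc2 differed between combination and HF diet by 0.39 (SE 0.24, adjusted p = 0.453) and between combination and diabetes by 0.51 (SE 0.23, adjusted p = 0.528). Ly6c was most like the fungal glucan receptor Clec7a (0.895) and the class II antigen presentation genes RT1-DMa (0.876) and Cd74 (0.874).

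A wider list of 73 macrophage and monocyte genes, of which 62 were measured by 63 probe sets, moved with the 10 genes (r = 0.956 between the 2 means over 23 hearts, as a description). Against control, 0 of 63 passed in the combination and 0 in diabetes, and 2 fell in HF diet, the inhibitory receptor Lilrb4 (-0.41, SE 0.16) and the lysosomal glycoprotein Gpnmb (-0.37, SE 0.12). That was 3.17% of the list beside 0.943% of all probe sets. Over the alternatives this count ran from 0 to 4. It was 0 with hearts of 1 code stem averaged and 1 without HF diet heart 3. Between combination and HF diet 2 of 63 were higher, Tyrobp (0.53, SE 0.20) and Lilrb4 (0.49, SE 0.17), a share of 3.17% that is below the 5.76% of all probe sets, between combination and diabetes 0 and between diabetes and HF diet 0. In the interaction 9 of 63 (beside the 4.34% above) were positive past the threshold and 0 negative, led by the leukocyte tetraspanin Cd53 (0.69, SE 0.32), Clec7a (0.68, SE 0.27) and Lilrb4 (0.66, SE 0.23), and without control heart 1 there were 7 positive and 1 negative, the matrix protein Fn1 (-0.37), with Cd53 at 0.49, Clec7a at 0.54 and Lilrb4 at 0.68. Without the 3 hearts with lung signal 3 were positive in the interaction, where 3.99% of all probe sets passed. Likewise 9 were higher between combination and HF diet, where 5.91% of all probe sets passed. The mean of this list correlated with Lyz2 at 0.874 and with Ly6c at 0.859. Those 2 genes were selected on the interaction, so the positive interactions of this list are not independent of that choice. The values of Lilrb4 and Gpnmb in HF diet were -0.42 and -0.34 without control heart 1. None of these had an adjusted p under 0.05 (lowest 0.368). The median difference of the list was 0.16 between combination and HF diet, with 54 of 63 positive, beside -0.01 over all probe sets with 47.1% positive, and 0.26 in the interaction. Between diabetes and HF diet 51 of 63 were positive (median 0.05), and between combination and diabetes 54 (median 0.11). Against control, 35 of 63 were positive in the combination (median 0.02), 12 in HF diet (median -0.11) and 14 in diabetes (median -0.06). Without control heart 1 these counts were 48, 18 and 26.

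Among 21 growth factors and chemokines of macrophages, the matrix cytokine Spp1 alone passed, higher in combination than in control (0.33, SE 0.16, adjusted p = 0.502) and than in HF diet (0.36, SE 0.17, adjusted p = 0.374). That was 4.76% of the list, near the 3.31% and 5.76% of all probe sets in these comparisons. Neutrophils also carry lysozyme. Of 20 neutrophil probe sets, the calcium-binding protein S100a8 (0.35, SE 0.17) and the chemokine receptor Cxcr2 (0.52, SE 0.22) were higher in combination than in control past the threshold, and the collagenase Mmp8 (0.58, SE 0.26) was higher than in HF diet, with none lower. These were 10% of the list beside 3.31% of all probe sets against control, and 5% beside 5.76% against HF diet. Without control heart 1 the differences from control were 0.35 for Spp1, 0.41 for S100a8 and 0.56 for Cxcr2, all past the threshold. The mean of the neutrophil list correlated with Lyz2 at 0.803, C1qb at 0.716, C1qa at 0.663 and Cd163 at 0.535, as a description. With Mrc1 it was 0.059 and with Adgre1 -0.314. The wider macrophage list correlated with Lyz2 at 0.874. In combination hearts 1 to 3, the hearts with high Lyz2, the mean of the neutrophil list was 0.09, 0.46 and 0.29, and in hearts 4 and 5 it was -0.07 and -0.05. The part of neutrophils in the values of Lyz2 was not tested.

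**Figure D5:**
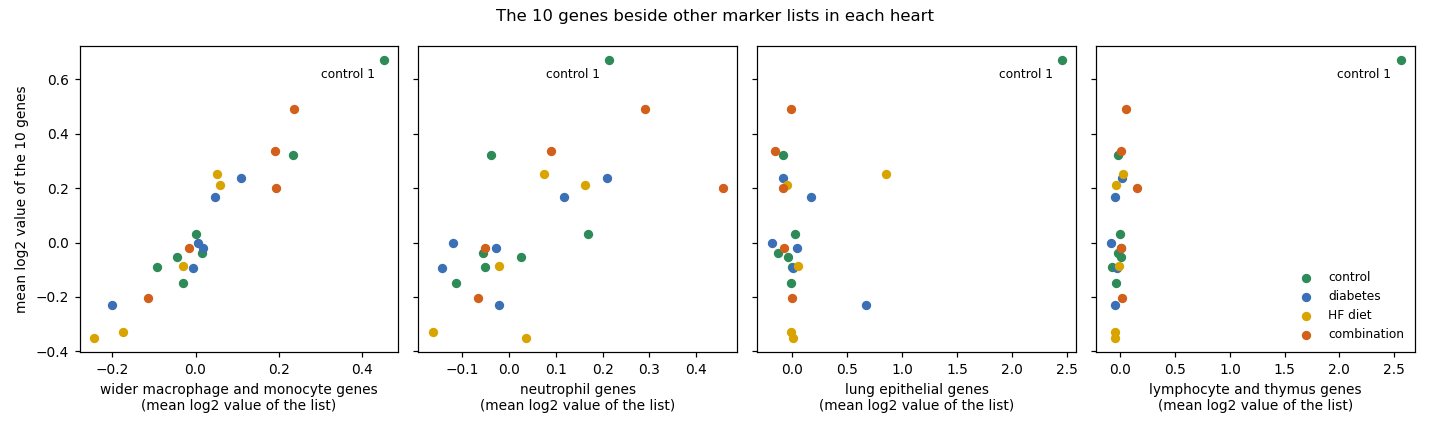
Mean log2 value of the 10 genes in each heart (vertical axis) against the mean of 4 other lists (horizontal axes, each with its own scale), coloured by group. The wider macrophage list runs along a line with the 10 genes (r = 0.956), and control heart 1 lies alone at 2.45 for lung and at 2.56 for lymphocyte and thymus genes.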

How the data were processed

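The authors hybridized heart RNA to Affymetrix arrays and normalized the intensities in GeneSpring GX 14.01. The deposited table holds log2 values of 29170 probe sets, and the median of every probe set across the 23 hearts is 0. That the base is 2 was taken from the study's sources. Which normalization algorithm and which filter limits were used is not stated in the sources read. No column belonged to another series (0).

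The values were used as deposited, with no pseudocount (0), no dim-probe filter and no second normalization. A mean per group was fitted with limma 3.58.1 (R 4.3.3; lmFit, eBayes) to all 23 hearts, with Benjamini-Hochberg adjustment over the 29170 probe sets, and the code was tested on simulated data. Summaries, permutation tests and plots used Python 3.11.15, pandas 2.3.3, numpy 2.4.6, scipy 1.17.1 and matplotlib 3.10.9. The number of arrays limits the precision. The members and lists were chosen with earlier results of these data known. Of other lists, at most 3 genes past the threshold were named per comparison, and the genes most like the members were named by rank (5 for their mean, 3 each for Lyz2 and Ly6c). Alternatives were the methods' t-test (unequal variances), blocks, weights, other normalizations and leaving out hearts. Promoters came from RefSeq (GRCr8). Ly6c was not among the promoters.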

Additional observations from a re-analysis of the deposited data

Results flagged for a closer look

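Of the 40 combinations of gene and group, 4 had a heart far from the others of its group by Dixon's 95% criterion, which chance alone gives in about 1 of 20. Lyz2 in control heart 1 was 1.89, the heart that also had the high lung and thymus signal. Cd68 in HF diet heart 3 was -0.63. Csf1r in combination heart 3 was 0.31, and Cd163 in the same heart was 0.74.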

How the results depend on the processing

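The median difference of the 10 genes moved by less than 0.262 under every alternative in each of the 7 contrasts. This limit was the SD within groups of the mean of the 10 genes. Every median was itself smaller than this limit, so a change of sign could pass and stability cannot be read from it. With 1 heart left out, the median ran from -0.03 to 0.12 for combination against control. For diabetes against HF diet it ran from -0.02 to 0.14. It also changed sign for diabetes against control and combination against diabetes, and kept its sign in the other contrasts. The counts of genes past the threshold were small and did move. Lyz2 and Ly6c were selected on the interaction, so their calls below describe the dependence on processing and are no test of these genes. Between combination and diabetes the 1 gene (Lyz2) was 0 with the methods' t-test, the replicate block, hearts of 1 code stem averaged, array weights, quantile normalization, arrays centred on their medians and robust eBayes, although its difference stayed between 0.65 and 0.85 (0.80 as reported). Between combination and HF diet the 2 genes became 0 with the methods' t-test and array weights, and 1 with the replicate block, the averaged stems, the stem as a random block and quantile normalization, with Lyz2 at 0.63 to 0.90 and Ly6c at 0.42 to 0.64 where they no longer passed. In the interaction the 2 became 1 with the replicate block, array weights and quantile normalization, with Lyz2 at 0.84 to 1.21. Between HF diet and control the replicate block gave 1 (Ly6c) in place of 0. Leaving out the 3 hearts with lung signal, chosen after seeing the data, gave 1 for combination against control (Lyz2), 1 for diabetes against HF diet (Cd14) and 0 in the interaction (Lyz2 0.93, Ly6c 0.71). The cause was not tested.

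Leaving out 1 heart at a time gave 0 to 1 genes for combination against control, 0 to 1 for HF diet against control, 0 to 3 for combination against diabetes (3 without combination heart 4), 0 to 2 for combination against HF diet, 0 to 1 for diabetes against HF diet (Cd14, without diabetes heart 3) and 1 to 2 in the interaction. Lyz2 passed against control without control heart 1 or combination heart 4, and Ly6c fell past the threshold in HF diet without control heart 2 or 6 or HF diet heart 5. The call between combination and diabetes was lost without any of diabetes hearts 1 to 4 or combination hearts 1 to 3. Both calls between combination and HF diet were lost without HF diet heart 1 or 3 or any of combination hearts 1 to 3, and 1 of them without HF diet heart 2 or 4. In the interaction Ly6c alone passed without control heart 1, 3 or 6, diabetes hearts 1 to 4, HF diet hearts 1 to 3 or combination hearts 1 to 3. The difference of Lyz2 between combination and diabetes was then 0.62 to 1.06. In the wider list the 9 calls of the interaction ranged from 4 (without HF diet heart 3) to 15 (without combination heart 4). Over all alternatives, those of the processing included, the lowest count was 1. Deviations of hearts with the same replicate number had r from -0.42 to 0.56 (31 pairs, median -0.08, 7 above 0.1). With other numbers r ran from -0.53 to 0.41 (166 pairs, median -0.01, 54 above 0.1). The labels do not say what the number stands for, and these values cannot settle whether it pairs the hearts. The replicate block took the count of calls over all probe sets from 965 to 632 for combination against control, from 886 to 579 for combination against diabetes, from 275 to 406 for HF diet against control, from 89 to 110 for diabetes against control and from 128 to 163 for diabetes against HF diet. It moved the count little for combination against HF diet (1679 to 1658) and the interaction (1265 to 1284). Averaging several probe sets of a gene was not run, because each gene had 1. The methods' t-test and the fit to 2 groups have no form for the interaction. Signal over background, and with it the limit of detection, cannot be read from centred values.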

Other observations

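Genes that mark other cell types passed the unadjusted threshold in places. Beside the counts below, the share of all probe sets past it was 3.31% for combination against control, 0.943% for HF diet and 0.305% for diabetes against control, 3.04% for combination against diabetes, 5.76% for combination against HF diet, 0.439% for diabetes against HF diet and 4.34% in the interaction. Of 11 erythroid probe sets, all 11 were above control in the combination (median 0.37), where Ahsp, the chaperone of alpha globin, passed the threshold with 1.38 (SE 0.43, adjusted p = 0.495). The 11 probe sets stood for 10 genes. In diabetes 10 of 11 were above control (median 0.39). There 3 passed, Ahsp (1.00, SE 0.41), the embryonic globin Hbe1 (0.83, SE 0.38) and the anion exchanger Slc4a1 (0.68, SE 0.31). In HF diet only 6 of 11 were above control (median 0.0054), and 1 passed, Hbe1 (0.86, SE 0.40). Between combination and HF diet 10 of 11 were positive (median 0.30) and 3 passed, 27.3% of the list. Without control heart 1, Ahsp still passed in the combination (1.32) and in diabetes (0.94), and Hbe1 (0.83 in diabetes and 0.87 in HF diet) and Slc4a1 (0.65) were about as large but no longer passed (unadjusted p of 0.0506, 0.0522 and 0.062 in the limma fit). Of 17 endothelial genes, 8 were higher in the combination than in control (median -0.04), 6 than in HF diet (median -0.10) and 7 than in diabetes (median -0.04). The leukocyte adhesion molecule Sele was higher in the combination than in control (0.68, SE 0.22, adjusted p = 0.495), or by 0.69 without control heart 1. Sele was also higher than in HF diet (0.55, SE 0.24), while the receptor Tie1 was lower than in HF diet (-0.37, SE 0.13). Vcam1, another adhesion molecule, was higher in the combination than in diabetes (0.38, SE 0.15) and lower in diabetes than in HF diet (-0.49, SE 0.15). No adjusted p was under 0.05.

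Of 27 interferon response genes, Irf7 (-0.36, SE 0.16), Rtp4 (-0.38, SE 0.16) and Gbp2 (-0.34, SE 0.13) were lower in HF diet than in control, and Ifi44l was lower in diabetes (-0.46, SE 0.19) and in the combination (-0.45, SE 0.20). Without control heart 1, which had the highest mean of this list, Irf7 and Rtp4 still passed (-0.39 for both), Gbp2 was -0.29 and Ifi44l was -0.31 and -0.30, none of the last 3 past the threshold. In the interaction Usp18 (0.94, SE 0.43) and Rtp4 (0.62, SE 0.23) were positive and Ifit3 negative (-0.41, SE 0.18), and without control heart 1 Usp18 was 0.84 and did not pass. Of 12 mast cell genes, the protease Mcpt1 was lower than in HF diet in the combination (-0.76, SE 0.30) and in diabetes (-0.77, SE 0.29). In each of these comparisons 2 of the 12 were positive. Mcpt4 had a positive interaction (0.39, SE 0.17), which was 0.33 and did not pass without control heart 1. Most of the list went the other way in the interaction, with 4 of 12 positive (median -0.04). Of 14 cardiomyocyte genes, Ryr2 (-0.45, SE 0.20) and Ttn (-0.40, SE 0.18) were lower in the combination than in HF diet and Myh7 had a negative interaction (-0.34, SE 0.16). The mean of that list and the mean of the 10 macrophage genes had r = -0.542 over the hearts, as a description. Of 12 fibroblast genes, Col1a1 had a negative interaction (-0.40, SE 0.17). Of 17 lymphocyte and thymus genes, Cd4 was lower than control in all 3 exposed groups (-0.53 in the combination, -0.57 in HF diet and -0.53 in diabetes), which did not hold without control heart 1 (-0.26, -0.30 and -0.25, none past the threshold), and Nkg7 was higher in the combination than in HF diet (0.45, SE 0.16). Of 14 lung genes, Ager was lower in the combination than in control (-0.36, SE 0.17), and by -0.19 without control heart 1, which did not pass.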
